A study of Mus musculus with 9 samples.

Results

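The 10 genes described here encode proteins of the contractile apparatus of fast muscle fibres: the myosin heavy chains Myh4, Myh1 and Myh2, the fast troponin subunits Tnnt3, Tnnc2 and Tnni2, the fast myosin light chains Mylpf and Myl1, the fast alpha-actinin Actn3 and the fast myosin-binding protein Mybpc2. They were taken by symbol from a table of 13116 genes, and all 10 were present. Polyadenylated RNA was measured in the quadriceps, a thigh muscle, of 9 male mice at 18 months of age. KO_secGAA were 3 GAA KO mice injected in the tail vein with AAV8-sp7-delta8-hGAAco, an adeno-associated virus carrying a human acid alpha-glucosidase that cells secrete (secGAA). KO_PBS were 3 GAA KO mice given saline (PBS), and WT_PBS were 3 wild-type mice given PBS. Injection took place at 9 months of age in all 9, and muscle was collected 9 months after it. The KO lacks acid alpha-glucosidase, which degrades glycogen in lysosomes and is deficient in Pompe disease. The labels give neither the strain nor the KO allele, and no group of wild-type mice with the vector or of younger mice enters the comparisons. They also do not say whether the mice shared cages or litters. Every test takes the mice as independent, which could not be checked.

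Muscle fibres shorten when myosin heads pull on actin filaments, and each fibre type uses its own set of sarcomere proteins. Slow fibres carry the heavy chain gene Myh7 with slow troponins and light chains, whereas the fast types IIa, IIx and IIb carry Myh2, Myh1 and Myh4 and share the other fast isoforms. Mouse quadriceps is largely fast muscle, and type IIb fibres, the quickest and most glycolytic type, are its most common kind.

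The fast heavy chain genes lie side by side on the plus strand of mouse chromosome 11 (GRCm38), in the order Myh2 (chr11:67171027-67197517), Myh1 (chr11:67200052-67224575) and Myh4 (chr11:67238029-67260446), with the developmental genes Myh3 and Myh8 on either side. Their upstream sequences are shown because the 3 genes took different shares of the myosin reads in these mice. Each runs 5′ to 3′ on the plus strand from RefSeq (GRCm38.p6) up to the RefSeq start, or for Myh1 up to the start in GENCODE M21. They span chr11:67237562-67237811 for Myh4, chr11:67199852-67200051 for Myh1 and chr11:67170777-67171026 for Myh2. Capitals mark the runs of 8 or more bases that all 3 genes share in the same order.
Myh4: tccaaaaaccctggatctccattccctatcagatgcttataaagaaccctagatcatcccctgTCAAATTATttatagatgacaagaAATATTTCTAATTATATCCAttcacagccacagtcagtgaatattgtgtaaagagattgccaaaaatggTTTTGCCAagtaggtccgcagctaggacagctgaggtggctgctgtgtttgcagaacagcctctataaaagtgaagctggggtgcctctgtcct
Myh1: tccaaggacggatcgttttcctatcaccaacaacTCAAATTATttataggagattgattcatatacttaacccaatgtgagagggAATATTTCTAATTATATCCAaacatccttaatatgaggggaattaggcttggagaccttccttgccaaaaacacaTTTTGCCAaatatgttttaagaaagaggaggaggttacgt
Myh2: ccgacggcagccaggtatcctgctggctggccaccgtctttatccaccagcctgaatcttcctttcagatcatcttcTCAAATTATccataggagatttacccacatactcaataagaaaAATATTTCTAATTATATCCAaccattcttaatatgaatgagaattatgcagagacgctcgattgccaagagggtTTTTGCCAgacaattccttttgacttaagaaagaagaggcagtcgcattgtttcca
The longest shared run, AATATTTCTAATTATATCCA, had 20 bases and was in 3 of the 32851 RefSeq promoter windows searched on both strands, which reach from 250 bases before to 50 bases after each start. Those windows belonged to Myh1, Myh2 and Myh4. The runs of 9 and 8 bases were common by comparison, in 0.18% and 1.09% of windows. Aligned over their length, Myh4 matched Myh1 at 51.7% and Myh2 at 52.0% of columns, and Myh1 matched Myh2 at 58.2%. RefSeq windows were at hand for 7 of the 10 members, all but Tnnt3, Tnni2 and Actn3. The letters TATAAA were in 4 of the 7, against 13.6% of all windows, and the E-box letters CANNTG were in 5, against 72.3%. The MEF2 motif was in 2, Myh1 and Myh4, against 1.86% of all windows, and the CArG motif was in Myh4, 1 of the 7, against 1.63%. The MEF3 letters TCAGGTT were in 0, against 4.07%. For Myh1 the window searched is that of the RefSeq start. These are matches of letters on either strand and some of the motifs can overlap.

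Values are the authors' normalized counts, reads per 1000000 scaled between libraries by TMM factors. Recovered totals ran from 10495715 to 14406655 reads in KO_secGAA, from 9299156 to 14355201 in KO_PBS and from 15477523 to 15957106 in WT_PBS, so 1 read was worth 0.065 to 0.092 normalized counts. The smallest count of any member in a library was 4751 reads, for Myh2 in WT_PBS mouse 1. Mouse Gaa, the targeted gene, had 15.1, 15.6 and 16.6 normalized counts in KO_secGAA and 17.8, 14.5 and 14.0 in KO_PBS, against 296, 129 and 264 in WT_PBS, so all 9 libraries matched their genotype (log2 fold change of KO_PBS against WT_PBS -3.77, limma adjusted p = 3.1e-05). Mouse Gaa does not check the treatment: KO_secGAA against KO_PBS stood at 0.04 (adjusted p = 0.959), and the human transgene was not analysed here. In the slow light chain Myl3 WT_PBS mouse 1 stood apart, with 0.65 normalized counts, whereas the other WT_PBS mice had 221 and 56.5. In the log2 ratio of Myh4 to Myh7 WT_PBS mouse 2 stood apart, at 10.2 against 15.6 and 14.8 in mice 1 and 3. In bulk muscle, fewer fibres of a type and less RNA per fibre cannot be told apart.

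The members were among the most abundant transcripts of the muscle. By mean value over the 9 libraries Myh4 ranked 1 of 13116, Tnnt3 ranked 7 and the least abundant member, Myh2, ranked 75. Together they took 11.2%, 11.2% and 11.8% of all reads in KO_secGAA, 10.2%, 9.46% and 9.996% in KO_PBS and 13.4%, 10.5% and 11.6% in WT_PBS. KO_PBS therefore lay below both other groups in this unscaled share, and KO_secGAA and WT_PBS overlapped. The difference was -1.92 percentage points between KO_PBS and WT_PBS and 1.497 between KO_secGAA and KO_PBS, each with p = 0.1 in a two-sided exact permutation test, the smallest that 3 against 3 mice can give (adjusted over 6 comparisons, 0.2). Without WT_PBS mouse 1 the difference between KO_PBS and WT_PBS was -1.14. Per kilobase of the principal coding transcript, the mean level ran in the order Tnnt3, Tnnc2, Tnni2, Mylpf, Myl1, Myh4, Actn3, Mybpc2, Myh1 and Myh2 in each of the 3 groups. In KO_secGAA this went from 18790 ± 2059 for Tnnt3 to 213 ± 59.3 for Myh2 in normalized counts per kilobase, in KO_PBS from 13852 ± 967 to 239 ± 102, and in WT_PBS from 20542 ± 2274 to 201 ± 169 (SD, n = 3 each).

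Of the 10 members, 6 fell in KO_PBS against WT_PBS (Tnnc2, Myl1, Tnni2, Mybpc2, Actn3 and Tnnt3; limma adjusted p under 0.05), whereas 11.0% of the 13089 genes tested fell. Of the 10, 8 were lower in every KO_PBS mouse than in every WT_PBS mouse, against 19.0% of all genes; Myh1 and Myh2, the genes of type IIx and IIa fibres, overlapped between groups. The median log2 fold change of the members was -0.61, against 0.01 over all genes. With quantile normalization 0 members passed with limma, also at an unadjusted p under 0.05, and Myh4, Tnnt3, Tnni2 and Mylpf had log2 fold changes above 0 (0.07 to 0.21). That method gives each rank the same value in every library, and the members ranked from 1 to 75 of 13116 by mean value. Myh4 ranked first in every library but WT_PBS mouse 2, so its value after this method could not fall below 0. Quantile normalization can therefore remove a shift common to the top genes, and whether it did so for the other members was not tested.

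**Figure D1:**
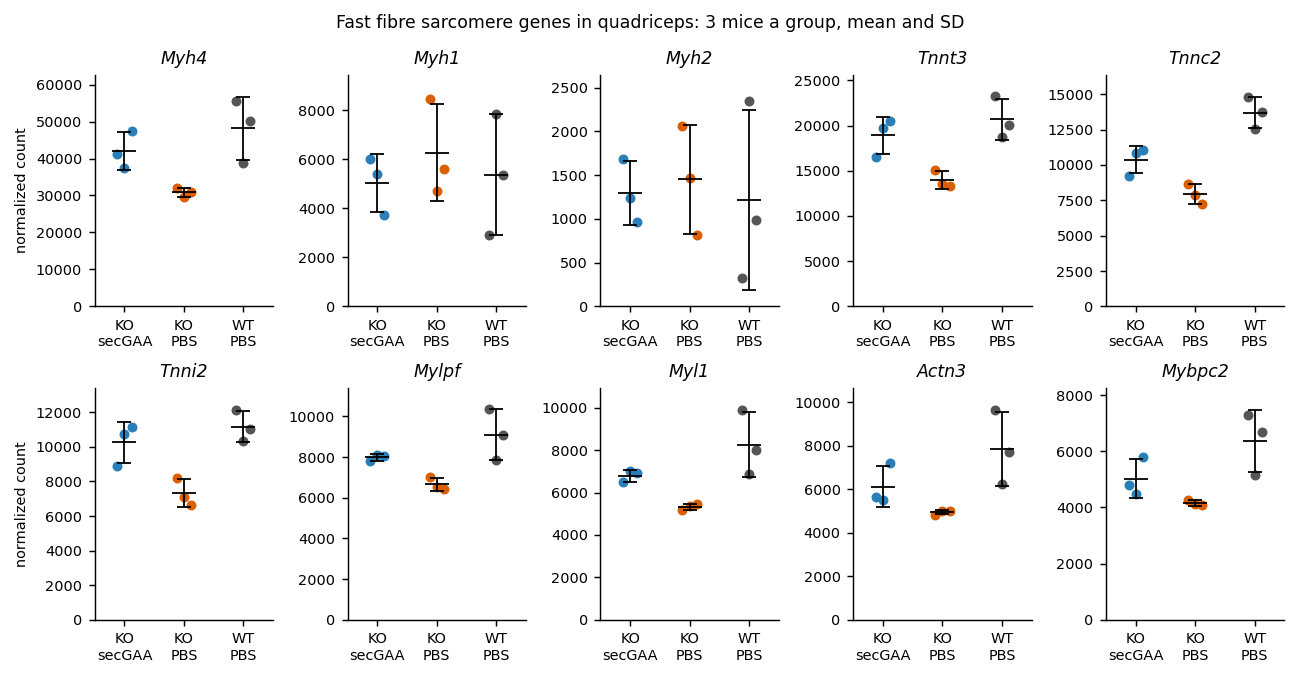
Normalized counts of the 10 members (vertical axes, from 0) in KO_secGAA, KO_PBS and WT_PBS, 1 point per mouse, with the mean and SD of 3 mice as black bars. In 8 of the 10 panels the KO_PBS points lie below both other groups, with the deposited scaling, and in the Myh1 and Myh2 panels the groups overlap. After quantile normalization 4 of the 8 genes have log2 fold changes above 0 in KO_PBS against WT_PBS. For Myh4 its ranks fixed that sign in advance.

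Troponin is the switch of the thin filament: Tnnc2 binds calcium, Tnni2 blocks myosin in its absence and Tnnt3 ties the complex to tropomyosin. Tnnc2 had 9254, 10856 and 11030 normalized counts in KO_secGAA, 8644, 7887 and 7263 in KO_PBS and 14778, 12558 and 13741 in WT_PBS. The 3 groups did not overlap, with KO_PBS lowest and WT_PBS highest. On the log2 scale Tnnc2 fell by 0.79 (SE 0.15, adjusted p = 0.0056) in KO_PBS against WT_PBS, to 0.579 of the WT_PBS level.

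Tnni2 had 8908, 10739 and 11141 normalized counts in KO_secGAA, 8225, 7081 and 6664 in KO_PBS and 12145, 10326 and 11047 in WT_PBS. Tnnt3 had 16563, 19747 and 20456 in KO_secGAA, 15068, 13487 and 13293 in KO_PBS and 23227, 18783 and 20048 in WT_PBS. For both genes all KO_PBS mice lay below all others, and the KO_secGAA mice overlapped with WT_PBS. Tnni2 fell in KO_PBS against WT_PBS by 0.61 (SE 0.16, adjusted p = 0.0216) and Tnnt3 by 0.56 (SE 0.17, adjusted p = 0.0441). Tnnc2 carries a counting caveat that the other troponins lack: 48.4% of the 61-base windows of its transcript, the read length, also lie, read on either strand, in a transcript of Ube2c, a cell cycle gene on the opposite strand. Ube2c itself had 5.19 to 11.8 normalized counts over the 9 libraries, and the strand setting of the counting is not given in the sources used here.

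The light chains stiffen the neck of the myosin head. Mylpf is the fast regulatory light chain and Myl1 the fast essential one. Myl1 had 6478, 7002 and 6905 normalized counts in KO_secGAA, 5183, 5368 and 5461 in KO_PBS and 9897, 6897 and 8005 in WT_PBS. KO_PBS was below the other groups without overlap, while KO_secGAA mice 2 and 3 were above WT_PBS mouse 2. Myl1 fell in KO_PBS against WT_PBS by 0.62 (SE 0.15, adjusted p = 0.0176). Of its windows 28.1% also lie in the pseudogene Mylf-ps, so part of its reads could be assigned there. How shared reads were assigned is not given in the sources used here. Mylpf spanned 7796 to 8120 in KO_secGAA, 6429 to 7038 in KO_PBS and 7847 to 10357 in WT_PBS, and its log2 fold change in KO_PBS against WT_PBS was -0.44 (SE 0.14, adjusted p = 0.0522).

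Actn3 cross-links actin filaments at the Z-disc of fast fibres, and Mybpc2 binds the thick filament and modulates the heads. Actn3 had 5653, 5490 and 7186 normalized counts in KO_secGAA, 4831, 5006 and 5001 in KO_PBS and 9627, 6239 and 7687 in WT_PBS. The KO_PBS mice lay close together and below all others, with a coefficient of variation of 2.02%, against 21.7% in WT_PBS. Actn3 fell in KO_PBS against WT_PBS by 0.64 (SE 0.18, adjusted p = 0.0288). Mybpc2 spanned 4468 to 5809 in KO_secGAA, 4103 to 4270 in KO_PBS and 5157 to 7294 in WT_PBS, and fell in KO_PBS against WT_PBS by 0.60 (SE 0.16, adjusted p = 0.0248). Over the 8 members other than Myh1 and Myh2, the coefficient of variation ran from 2.10% to 15.3% in KO_secGAA, from 2.02% to 11.0% in KO_PBS and from 8.11% to 21.7% in WT_PBS.

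The 6 calls differ in how far they rest on single mice. Tnnc2 passed in all 9 fits that left out 1 library (highest adjusted p = 0.0291). Tnni2 no longer passed without WT_PBS 3, KO_PBS 2 or KO_PBS 3 (up to 0.0814), and Myl1 without WT_PBS 3, KO_PBS 1 or KO_PBS 2 (up to 0.0604). Actn3 and Mybpc2 lost the call without WT_PBS 1, WT_PBS 3 or any of the KO_PBS mice (up to 0.0863 and 0.0938). Tnnt3 passed in 1 of the 9, that without WT_PBS 2 (up to 0.142). Without WT_PBS mouse 1, the lowest of its group for Myh1 and Myh2, 3 members fell, and the log2 fold changes of these genes turned to -0.09 and -0.17. The count was 8 without WT_PBS 2, 1 without WT_PBS 3, 2, 1 and 2 without KO_PBS 1, 2 and 3, and 5 without any 1 of the KO_secGAA mice. With edgeR, DESeq2 and limma voom on all 9 libraries 8 members fell.

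The scaling bears on the same calls. KO_PBS had TMM factors of 1.07 to 1.17 and WT_PBS of 0.873 to 0.914, and without these factors the median log2 fold change of all genes in KO_PBS against WT_PBS moved to 0.305. Among the genes called in that comparison, 49.9% were higher with the factors and 89.6% without. Without them 1 member, Tnnc2, fell (-0.47, adjusted p = 0.0164), and the members' median was -0.29. Relative to the median of all genes it was -0.60 without the factors and -0.62 with them. In the other comparisons the higher genes made up 37.2% of calls with the factors and 10.6% without (KO_secGAA against KO_PBS), and 49.1% and 86.2% (KO_secGAA against WT_PBS). Centred on the shared sarcomere genes described next, they made up 14.4% and 32.9% of calls in these 2 comparisons.

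**Figure D2:**
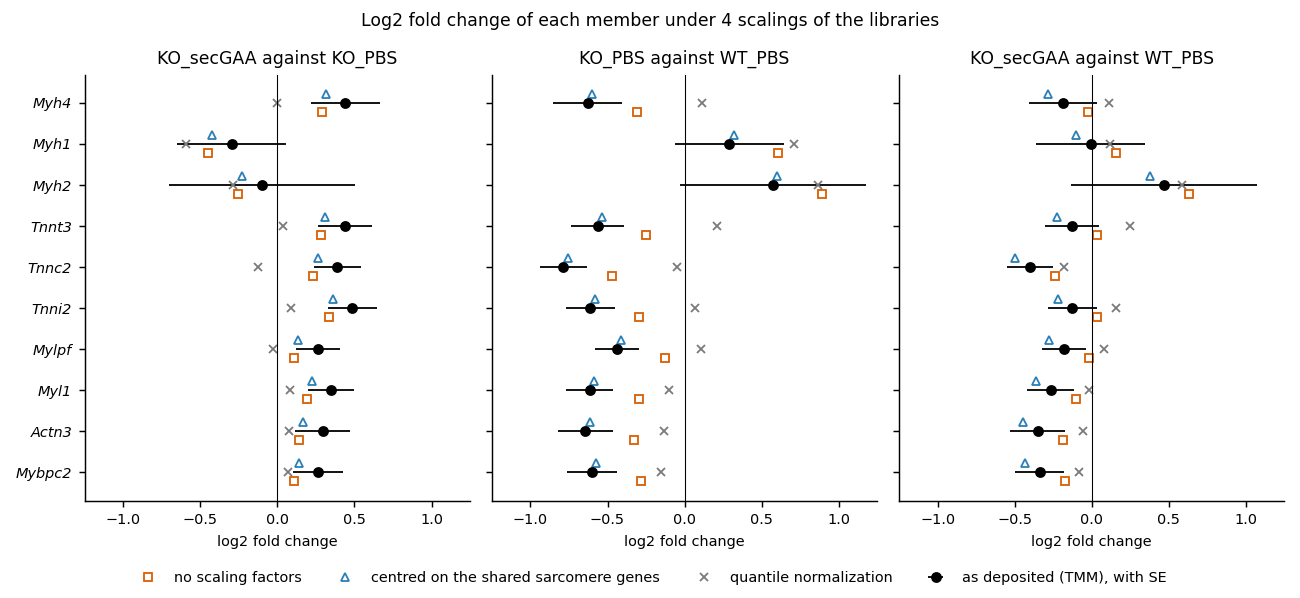
Log2 fold change of each member (horizontal axis) in the 3 comparisons, under the deposited TMM scaling with its SE (filled circles), without scaling factors (squares), centred on the sarcomere genes of all fibres (triangles) and after quantile normalization (crosses). In KO_PBS against WT_PBS 8 members lie below 0 in the first 3 settings, and 4 of these 8 lie above 0 after quantile normalization. For Myh4 its ranks fixed that sign in advance.

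A ratio within a library does not depend on the scaling between libraries. The members were therefore set against 28 sarcomere genes used by all fibre types, such as Ttn and Neb, as the log2 value minus the mean log2 value of those genes. Tnnc2 stood at 3.44, 3.69 and 3.62 in KO_secGAA, 3.28, 3.29 and 3.39 in KO_PBS and 4.30, 3.94 and 3.99 in WT_PBS, so the groups stayed apart. Of the 10 members, 8 were lower in KO_PBS than in WT_PBS without overlap, and the differences of all 10 ran from -0.76 (Tnnc2) to 0.60 (Myh2). Averaged over the members the ratio was 3.05 ± 0.07 in KO_PBS and 3.42 ± 0.06 in WT_PBS (SD, n = 3 each; difference -0.37, exact permutation p = 0.1, the smallest possible, and 0.194 adjusted over 33 ratios). The 28 genes themselves changed in part: 10 fell and 3 rose in KO_PBS against WT_PBS, with a median log2 fold change of -0.12, where 11.0% of all genes tested fell and 10.9% rose. Centring the libraries on them, an alternative added after the data were seen, left 4 members lower (adjusted p under 0.05).

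Myh4 made up most of the heavy chain reads in every mouse. It had 41097, 37540 and 47561 normalized counts in KO_secGAA, 32117, 29636 and 30807 in KO_PBS and 55643, 38852 and 50016 in WT_PBS. All KO_PBS mice lay below all others, and KO_secGAA and WT_PBS overlapped. The log2 fold change in KO_PBS against WT_PBS was -0.63 (SE 0.22), with adjusted p = 0.0727 by limma, 0.0163 by edgeR and 1.1e-04 by DESeq2, and it passed with limma when WT_PBS mouse 2 was left out (adjusted p = 0.0381).

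Myh1 had 6029, 5396 and 3719 normalized counts in KO_secGAA, 8488, 4708 and 5622 in KO_PBS and 2923, 7854 and 5353 in WT_PBS. Myh2 had 1682, 1236 and 969 in KO_secGAA, 2061, 1473 and 820 in KO_PBS and 326, 2345 and 988 in WT_PBS. The groups overlapped throughout, and the spread in WT_PBS was wide, with mouse 1 lowest and mouse 2 highest for both genes. Log2 fold changes in KO_PBS against WT_PBS were 0.29 (SE 0.35, adjusted p = 0.599) for Myh1 and 0.57 (SE 0.60, adjusted p = 0.540) for Myh2. The heavy chains share sequence: of the 61-base windows, 14.5% of Myh4, 27.1% of Myh1 and 23.2% of Myh2 recur in another gene, mostly one of the same cluster, so part of their reads could be assigned to a neighbour.

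As a share of the reads of Myh4, Myh1, Myh2, Myh7, Myh3 and Myh8, Myh4 took 84.0%, 84.9% and 90.7% in KO_secGAA, 74.0%, 82.4% and 82.4% in KO_PBS and 94.5%, 79.1% and 88.7% in WT_PBS. Every KO_secGAA mouse was above every KO_PBS mouse. WT_PBS overlapped with both groups and covered the range of KO_secGAA, while KO_PBS mouse 1 lay below all WT_PBS mice. Myh1 took 12.3%, 12.2% and 7.09% in KO_secGAA, 19.5%, 13.1% and 15.0% in KO_PBS and 4.96%, 16.0% and 9.50% in WT_PBS. The Myh4 share was 6.93 percentage points higher and the Myh1 share 5.35 lower in KO_secGAA than in KO_PBS, each with exact permutation p = 0.1, the smallest possible (0.4 adjusted over 12 comparisons). Without KO_PBS mouse 1 these differences were 4.12 and -3.53 points. Against WT_PBS, KO_PBS differed by -7.84 points for Myh4 and 5.74 for Myh1 (exact permutation p = 0.3 for each), within the spread between mice, and by -4.32 and 3.15 points without WT_PBS mouse 1. Myh2 took 1.85% to 3.44% in KO_secGAA, 2.19% to 4.75% in KO_PBS and 0.553% to 4.77% in WT_PBS. The slow chain Myh7 took 0.701% ± 0.702 in KO_PBS and 0.0234% ± 0.0377 in WT_PBS (SD, n = 3 each), without overlap and at exact permutation p = 0.1.

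**Figure D3:**
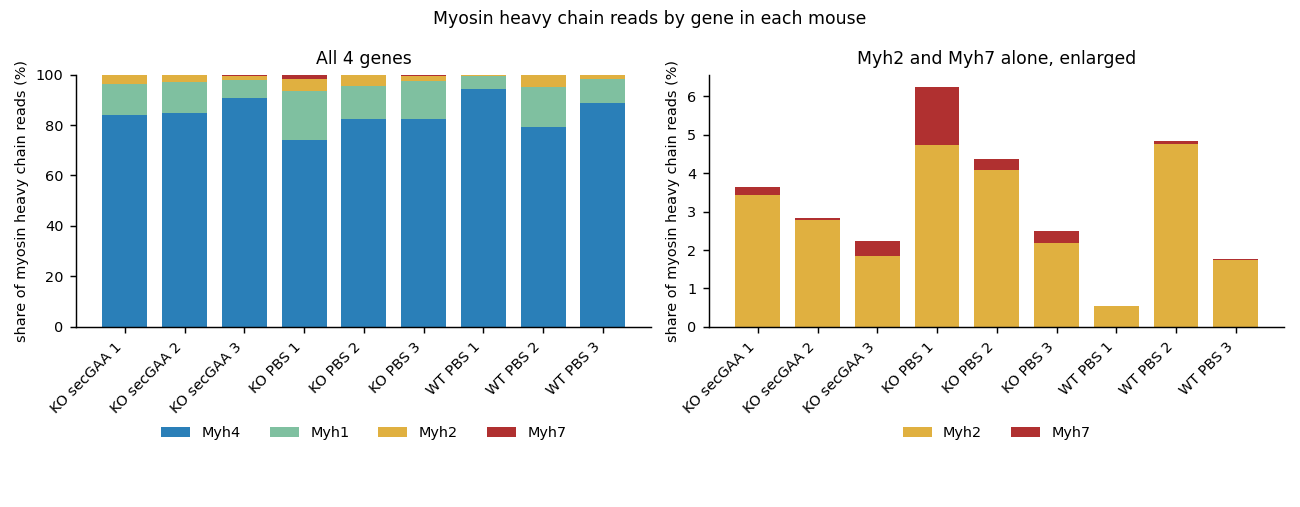
Share of the reads of 6 sarcomeric myosin heavy chain genes taken by Myh4, Myh1, Myh2 and Myh7 (vertical axis, percent) in each mouse, for all 4 genes on the left and enlarged for Myh2 and Myh7 on the right. Myh4 runs from 74.0% in KO_PBS mouse 1 to 94.5% in WT_PBS mouse 1, and the Myh7 band is widest in KO_PBS mouse 1.

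KO_secGAA mice were set against KO_PBS mice to ask how far the vector moved these genes, and 0 of the 10 members passed in that comparison, against 1.37% of all genes called higher. Of the 10, 8 were higher in every KO_secGAA mouse than in every KO_PBS mouse, against 11.7% of all genes; these were the members lower in KO_PBS than in WT_PBS without overlap, and both comparisons share the KO_PBS mice. Tnni2 came nearest to the threshold, with a log2 fold change of 0.49 (SE 0.16, unadjusted p = 0.0119, adjusted p = 0.131 by limma). Tnnt3 stood at 0.44 (adjusted p = 0.212), Myh4 at 0.44 (0.323), Tnnc2 at 0.39 (0.203), Myl1 at 0.35 (0.248), Actn3 at 0.29 (0.419), and Mybpc2 and Mylpf at 0.26. At an unadjusted p under 0.05, 4 members passed with limma. By adjusted p 4 passed with DESeq2 (Tnni2, Tnnt3, Tnnc2 and Myh4), and 0 with edgeR and with limma voom, where 6 passed unadjusted. With quantile normalization Tnnc2 and Mylpf lay below 0 (-0.13 and -0.03). Myh4 lay at 0, a value fixed in advance because Myh4 ranked first in every KO library. The median of the members was 0.32 with the deposited scaling, 0.17 without scaling factors and 0.02 after quantile normalization.

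Against WT_PBS, 0 of the 10 members fell in KO_secGAA, whereas 1.89% of all genes did, and 1 member, Tnnc2, was lower without overlap, against 13.3% of all genes. Its log2 fold change was -0.40 (SE 0.15, adjusted p = 0.165 by limma, 0.0101 by DESeq2). By adjusted p it was the 1 member called with DESeq2, and 0 were called with edgeR and limma voom. Unadjusted, 1 member was lower with limma, 2 with edgeR, 2 with limma voom and 4 with DESeq2. The other members ran from -0.35 (Actn3) to 0.47 (Myh2), and the largest of their limma adjusted p values was 0.992, for Myh1. In the ratio to the 28 shared sarcomere genes KO_secGAA averaged 3.18 ± 0.03 and WT_PBS 3.42 ± 0.06 (SD, n = 3 each), without overlap. That ratio was 0.13 higher in KO_secGAA than in KO_PBS and 0.25 lower than in WT_PBS (exact permutation p = 0.1 for both, the smallest possible; 0.194 adjusted). Taken singly, 4 of the 10 members (Myh4, Tnnt3, Tnnc2 and Tnni2) were higher in KO_secGAA than in KO_PBS without overlap in this ratio. Tnnc2 (-0.50) and Myl1 (-0.36, or -0.17 without WT_PBS mouse 1) were lower in KO_secGAA than in WT_PBS. By mean value 8 members had the order WT_PBS, KO_secGAA, KO_PBS from high to low, where the neighbours KO_secGAA and WT_PBS overlapped for all but Tnnc2, with the deposited scaling.

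The troponin genes kept their proportions to each other to different degrees. The log2 ratio of Tnnt3 to Tnni2 stayed between 0.860 and 0.996 in all 9 mice, at 0.883 ± 0.010 in KO_secGAA, 0.933 ± 0.062 in KO_PBS and 0.886 ± 0.043 in WT_PBS (SD, n = 3 each). The ratio of Tnni2 to Tnnc2 was -0.055, -0.016 and 0.014 in KO_secGAA, -0.072, -0.155 and -0.124 in KO_PBS and -0.283, -0.282 and -0.315 in WT_PBS. All 3 groups were apart in this ratio, with KO_secGAA highest. It was 0.18 higher in KO_PBS and 0.27 higher in KO_secGAA than in WT_PBS (exact permutation p = 0.1 for each, the smallest possible; 0.333 adjusted over 30 ratios). The overlap of Tnnc2 with Ube2c enters this ratio, and its part was not tested. Tnnt3 to Tnnc2, at 0.84 to 0.89 in KO_secGAA, 0.77 to 0.87 in KO_PBS and 0.55 to 0.65 in WT_PBS, was also higher in both KO groups than in WT_PBS without overlap, and shares Tnnc2 with the ratio above.

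Among the light chains the log2 ratio of Mylpf to Myl1 was 0.27, 0.21 and 0.22 in KO_secGAA, 0.44, 0.28 and 0.24 in KO_PBS and 0.07, 0.19 and 0.19 in WT_PBS. Both KO groups lay above WT_PBS, by 0.09 for KO_secGAA and 0.17 for KO_PBS, and overlapped with each other (exact permutation p = 0.1 for each, the smallest possible; 0.333 adjusted). The first difference was 0.047 without WT_PBS mouse 1, and the second 0.114 without KO_PBS mouse 1. Between the heavy chains of type IIb and IIx fibres, the log2 ratio of Myh4 to Myh1 was 2.77, 2.80 and 3.68 in KO_secGAA, 1.92, 2.65 and 2.45 in KO_PBS and 4.25, 2.31 and 3.22 in WT_PBS. It was 0.74 higher in KO_secGAA than in KO_PBS without overlap (exact permutation p = 0.1; 0.333 adjusted), or 0.44 without KO_secGAA mouse 3, and WT_PBS overlapped with both. Actn3 to Mybpc2 stayed within 0.18 to 0.40 in the 9 mice, with overlap in all 3 comparisons. Of the 10 ratios computed between members, 4 differed without overlap in KO_PBS against WT_PBS, 2 in KO_secGAA against KO_PBS and 3 in KO_secGAA against WT_PBS.

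Fast isoforms have slow counterparts, and the log2 ratio of the pair within a mouse was used as a measure free of scaling, apart from the 0.5 added to each value. The ratio of Tnnc2 to the slow troponin gene Tnnc1 was 8.63, 11.3 and 7.25 in KO_secGAA, 5.87, 7.69 and 8.02 in KO_PBS and 13.6, 9.999 and 12.5 in WT_PBS. KO_PBS lay below WT_PBS without overlap, and KO_secGAA overlapped with both. The same held for Myh4 to Myh7, Tnnt3 to Tnnt1 and Tnni2 to Tnni1, so 4 of 8 ratios were lower in KO_PBS than in WT_PBS without overlap (exact permutation p = 0.1, the smallest possible; 0.4 adjusted over 24 comparisons). Differences of KO_PBS against WT_PBS ran from -6.24 (Myh4 to Myh7) to -0.71 (Mybpc2 to Mybpc1) over the 8. Myh7 was near the floor in WT_PBS mice 1 and 3. With 1 or 0.1 added in place of 0.5, the difference of Myh4 to Myh7 was -5.94 or -6.58. Without WT_PBS mouse 1 the 4 ratios without overlap differed by -5.22 (Myh4), -4.05 (Tnnc2), -3.42 (Tnnt3) and -3.36 (Tnni2). The pairs Mylpf to Myl2, Myl1 to Myl3, Mybpc2 to Mybpc1 and Actn3 to Actn2 overlapped, as all 8 did in KO_secGAA against KO_PBS (0.20 to 1.99) and in KO_secGAA against WT_PBS (-4.25 to -0.48). Actn2 is present in all fibres and is not a slow isoform.

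For Myh4 to Myh7 most of the difference lay on the slow side. Myh7 had 94.1, 15.6 and 203 normalized counts in KO_secGAA, 656, 101 and 116 in KO_PBS and 0.65, 32.9 and 1.22 in WT_PBS. The KO_PBS mice were above all WT_PBS mice, by a log2 fold change of 5.62 (adjusted p = 0.0143), a call that was lost without WT_PBS 3 (adjusted p = 0.0588). On the fast side Myh4 differed by -0.63 on the same scale.

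**Figure D4:**
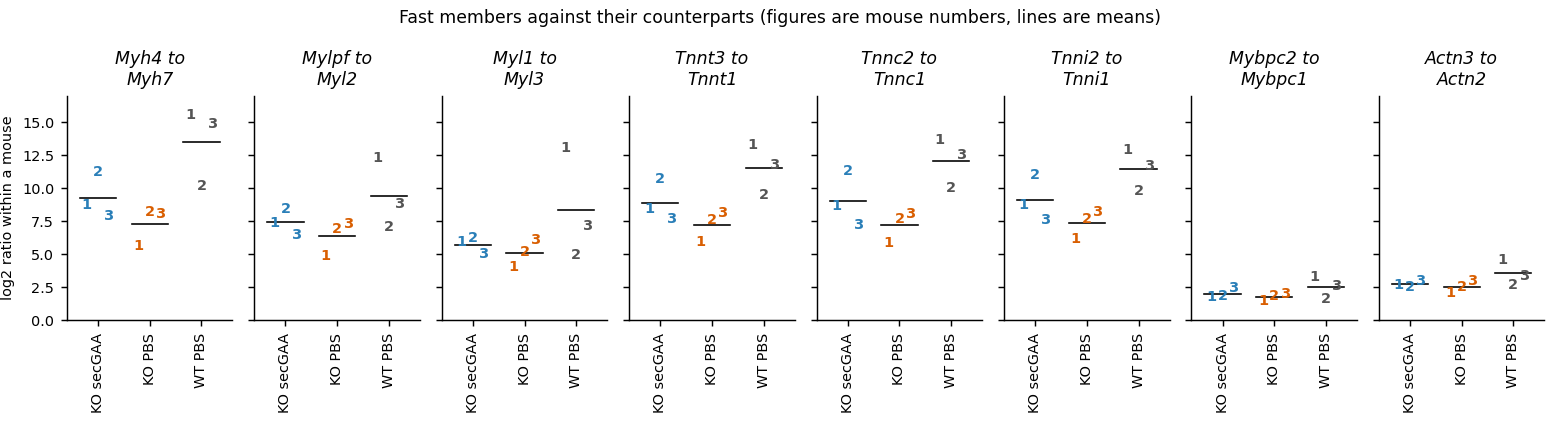
Log2 ratio of 8 fast members to their counterparts within each mouse (vertical axis), with mouse numbers as symbols and group means as lines, for KO_secGAA, KO_PBS and WT_PBS. For Myh4, Tnnt3, Tnnc2 and Tnni2 the KO_PBS mice lie below the WT_PBS mice, and WT_PBS mouse 1 is the highest of its group in all 8 panels.

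Other genes typical of fast fibres included members that fell with the sarcomere isoforms. Of 14, 7 fell and 1 rose in KO_PBS against WT_PBS, with a median log2 fold change of -0.46, against 1437 lower and 1430 higher among all 13089 genes. The glycerol phosphate dehydrogenase Gpd1 had 404, 399 and 468 normalized counts in KO_secGAA, 213, 199 and 256 in KO_PBS and 669, 542 and 633 in WT_PBS. Its 3 groups were apart; it fell in KO_PBS against WT_PBS by 1.47 (adjusted p = 6.2e-05) and rose in KO_secGAA against KO_PBS by 0.93 (adjusted p = 0.0050). Casq1, the fast calcium buffer of the sarcoplasmic reticulum, fell in KO_PBS by 1.06 (adjusted p = 4.6e-04), the kinase of the regulatory light chain Mylk2 by 0.93 (0.0015) and the muscle enolase Eno3 by 0.76 (0.0022), and these 4 calls held in all 9 fits that left out 1 library. Smtnl1, named after its value was seen, rose by 1.49 (adjusted p = 0.0237), but not without WT_PBS 3, KO_PBS 1 or KO_PBS 2 (up to 0.0808). In KO_secGAA against KO_PBS 3 of the 14 rose, Gpd1 in all 9 such fits. Casq1 (0.65, adjusted p = 0.0247) and Myoz3 (0.93, 0.0342), named after its value was seen, each passed in 3 of the 9: both calls were lost without WT_PBS 3, KO_PBS 2 or any KO_secGAA mouse, that of Casq1 also without KO_PBS 1 and that of Myoz3 without WT_PBS 2 (up to 0.0844 and 0.0922). In KO_secGAA against WT_PBS 1 fell, Gpd1 (-0.53, adjusted p = 0.0426), which passed in 2 of the 9, those without KO_PBS 3 or KO_secGAA 3. Without scaling factors 4 fell and 2 rose in KO_PBS against WT_PBS.

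Among the 11 slow sarcomere genes 5 rose and 0 fell in KO_PBS against WT_PBS, with a median of 2.56 and calls for Myh7, Tnnt1, Tnnc1, Tpm3 and Tnni1, where 10.9% of all genes tested rose (edgeR and DESeq2 also called 5, limma voom 2). The adjusted p reached 0.0758 (Tnnt1), 0.0850 (Tnnc1) and 0.0852 (Tnni1) when 1 library was left out, with the calls lost without WT_PBS 1, WT_PBS 3, KO_PBS 1 or KO_PBS 2, and 0.0857 for Tpm3, lost without WT_PBS 1, WT_PBS 3 or KO_PBS 1. In KO_secGAA against KO_PBS 0 of the 11 passed with limma, edgeR, DESeq2 or limma voom, and 0 at an unadjusted p under 0.05 (median -0.73). In KO_secGAA against WT_PBS 0 passed with any of these tools (median 1.77), and 5 were higher at an unadjusted p with limma. Of the 28 sarcomere genes of all fibres, the 4 that fell in KO_PBS against WT_PBS with the smallest p were Smyd1, a methyltransferase needed for myofibril assembly (-0.76, adjusted p = 8.1e-04), the Z-disc gene Ldb3 (-0.66, 0.0018), the capping protein Capza2 (-0.59, 0.0021) and Pdlim7 (-0.39, 0.0063). Without scaling factors 3 of the 28 fell and 6 rose, and Pdlim7 stood at -0.08 (adjusted p = 0.415). With limma, Smyd1 was the 1 of these genes to rise in KO_secGAA against KO_PBS (0.42, adjusted p = 0.0485), and it did so in 1 of the 9 fits with a library left out, that without WT_PBS 1. By edgeR its adjusted p was 0.0559, edgeR and limma voom called 0 of the 28 higher and 1 lower in that comparison, and DESeq2 called 7 higher and 1 lower. In KO_secGAA against WT_PBS 0 of the 28 passed with limma or edgeR, while unadjusted 4 were higher and 6 lower with each. By adjusted p limma voom called 1 lower, and DESeq2 called 3 higher and 4 lower.

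Of 9 developmental and cardiac sarcomere genes measured, 4 rose in KO_PBS against WT_PBS, where 10.9% of all genes did. These were the atrial and embryonic light chain Myl4 (3.23, adjusted p = 3.8e-04), the cardiac troponin Tnnt2 (2.16, 0.0031), the embryonic heavy chain Myh3 (1.63, 0.0100) and the cardiac actin Actc1 (0.81, 0.0382). Their levels were low beside the fast members: Myh3, which lies in the same gene cluster, had 6.13, 2.75 and 3.57 normalized counts in KO_secGAA, 15.8, 7.998 and 8.04 in KO_PBS and 2.02, 2.71 and 4.48 in WT_PBS. The KO_PBS mice were highest without overlap. The Actc1 call ended without WT_PBS 2, KO_secGAA 1 or any of the KO_PBS mice (up to 0.0879); in KO_secGAA against KO_PBS Actc1, 1 of the 9, fell by 1.48 (adjusted p = 0.0117), where 2.31% of all genes fell. In KO_secGAA against WT_PBS 1 of the 9 genes rose, Myl4 (2.33, adjusted p = 0.0120), a call lost without KO_secGAA 2 (0.0522), and 1.83% of all genes rose.

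Of 40 measured regulators of fibre type, 3 rose and 3 fell in KO_PBS against WT_PBS, with a median of -0.03, against 1430 higher and 1437 lower of all 13089 genes. Without scaling factors 13 of the 40 rose and 1 fell, against 4466 higher and 518 lower of all genes. Myog, a myogenic transcription factor that is high in developing and denervated fibres, rose by 1.39 (adjusted p = 0.0086) and the oestrogen-related receptor Esrrg, which promotes oxidative genes, by 1.56 (0.0092). Sox6, a repressor of slow genes, fell in KO_PBS against WT_PBS by 0.47 (adjusted p = 0.0164), though not without WT_PBS 3, KO_PBS 1 or KO_PBS 2 (up to 0.0579), and without scaling factors it stood at -0.15 (adjusted p = 0.349). In KO_secGAA against KO_PBS 1 of the 40 rose, the histone deacetylase Hdac5 (0.47, adjusted p = 0.0078).

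**Figure D5:**
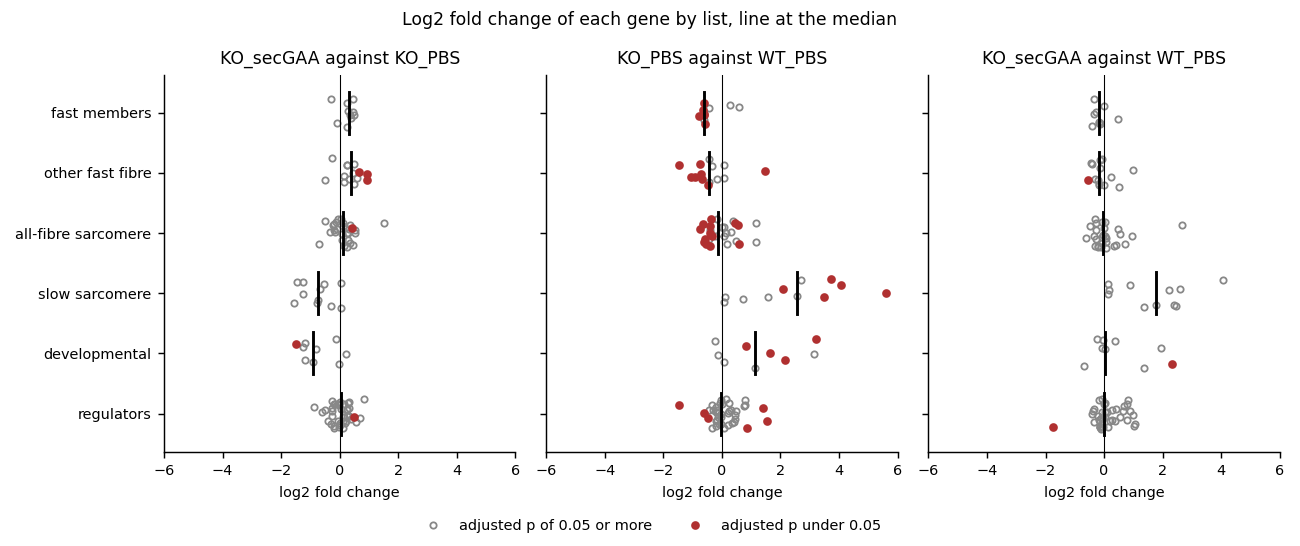
Log2 fold change of each gene (horizontal axis) by list, in the 3 comparisons; filled points have a limma adjusted p under 0.05 and black lines are list medians. In KO_PBS against WT_PBS the fast members other than Myh1 and Myh2 lie between -0.79 and -0.44 with the deposited scaling. After quantile normalization 4 of these 8 lie above 0, Myh4 by its ranks alone. The slow list has its median at 2.56 with the deposited scaling.

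By likeness of profile over the 9 libraries, the genes nearest to the mean of the members were Dmxl1, Pnpla8, Apip, Fxyd1, Gstm5 and Dcaf6. Their log2 values, centred on their own mean, differed from the members' mean by a root mean square of 0.054 to 0.061, where the mean profile of the members itself had 0.182 around 0. These were the nearest of 8723 named genes outside the lists with a mean of 5 normalized counts or more. The mean of the members takes in Myh1 and Myh2, whose log2 fold changes in KO_PBS against WT_PBS were above 0. Myh4 alone varied more, with 0.304 around 0. The genes most like Myh4 alone were Cyp27a1 (0.066), Nt5dc3 (0.087) and Pgm2 (0.092), and Cyp27a1, a mitochondrial sterol hydroxylase, had 70.9, 61.9 and 88.0 normalized counts in KO_secGAA, 55.5, 49.9 and 50.2 in KO_PBS and 105, 69.8 and 87.8 in WT_PBS. The nearest to Myh2 were the lactate dehydrogenase Ldhb (0.312), the ketone body enzyme Bdh1 (0.323) and Homer2 (0.330).

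For Myh1 the nearest gene was Myhas (0.199), before Prg4 (0.205) and Ntn4 (0.233). Myhas is an antisense RNA gene on the minus strand at chr11:67211256-67237573, which overlaps 13320 bases of Myh1 and reaches 12 bases into the Myh4 upstream window shown above. It had 254, 348 and 203 normalized counts in KO_secGAA, 492, 304 and 263 in KO_PBS and 167, 492 and 315 in WT_PBS. Like Myh1 it was lowest in WT_PBS mouse 1 and high in KO_PBS mouse 1 and WT_PBS mouse 2. The 13320 bases are an overlap of gene spans, introns included, and the part of it in exons of both genes is not given here. Without knowing whether strand was used in counting, reads of Myhas and Myh1 from that part cannot be told apart.

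Some markers of other cell types also differed between the groups, and the counts that follow are for KO_PBS against WT_PBS, where 10.9% of all genes rose and 11.0% fell. Of 13 macrophage markers 3 rose and 0 fell, and their summed level was 147 to 305 normalized counts in KO_secGAA, 254 to 373 in KO_PBS and 105 to 175 in WT_PBS. Of 10 endothelial markers 4 fell, with sums of 220 to 255 in KO_secGAA, 156 to 204 in KO_PBS and 216 to 268 in WT_PBS. Of 8 fibroblast markers 1 rose (517 to 643 in KO_secGAA, 583 to 943 in KO_PBS, 531 to 630 in WT_PBS), and of 5 satellite cell markers measured 2 rose (116 to 137, 144 to 158 and 106 to 118 in the same order of groups). Without scaling factors 9 macrophage, 4 fibroblast and 4 satellite cell markers rose and 0 endothelial markers fell. In that setting 4466 of all 13089 genes rose and 518 fell. With the deposited scaling and limma, 9 macrophage, 4 fibroblast and 3 satellite cell markers were higher at an unadjusted p under 0.05, and 6 endothelial markers were lower. Adipocyte markers summed to 338 to 956, 220 to 444 and 325 to 1430 (0 of 7 called, and 0 unadjusted, with limma), Schwann cell markers to 51.1 to 55.7, 55.1 to 58.6 and 42.3 to 63.7 (0 of 6, and 0 unadjusted), red cell markers to 88.1 to 448, 33.0 to 176 and 171 to 452 (0 of 5, and 3 lower unadjusted), and smooth muscle and pericyte markers to 262 to 295, 251 to 289 and 294 to 327 (1 rose and 1 fell of 8). In KO_secGAA against KO_PBS 2 fibroblast, 1 macrophage and 1 satellite cell marker fell and 1 adipocyte marker rose (2 adipocyte markers unadjusted), where 2.31% of all genes fell and 1.37% rose. In KO_secGAA against WT_PBS 2 macrophage markers rose with limma, 1 with edgeR and 0 with limma voom, where 1.83% of all genes rose with limma. No marker was at 0 reads in any library. The 10 members summed to 108267 to 122809 normalized counts in KO_secGAA, 85293 to 95925 in KO_PBS and 116859 to 146218 in WT_PBS. The part of these cell types in the members' differences was not tested.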

How the data were processed

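RNA-seq libraries (polyA RNA, NEBNext Ultra, single-end reads of 61 bases, per the labels' protocols) of 9 quadriceps muscles, 3 per group, were used. The authors deposited 1 table of normalized counts, a signal per gene in reads per 1000000 with an offset. Per the submitters' processing notes CASAVA, cutadapt, RSEM, limma, edgeR and GRCm38 were used; for their roles and versions, and for the strand setting, the labels hold no statement (not given in the sources used here). The deposited values equal (reads + 0.5) over total reads times a TMM factor, per 1000000, and all 118044 gave whole reads (100% within 1e-06); RSEM is named, yet the counts are whole. Of the 13116 gene identifiers, 13104 matched GENCODE M21 (GRCm38).

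The main test was limma 3.58.1 (R 4.3.3, mean-variance trend) on log2(value + 0.5) for the 13089 genes with a value of 1 or more in at least 3 libraries, over all 3 groups with 6 residual degrees of freedom and Benjamini-Hochberg adjustment at 0.05. Every adjusted p without a named tool is from this fit. A fold change on the log2(value + 0.5) scale understates the change of low genes. As the reads could be recovered, edgeR 4.0.16, DESeq2 1.42.0 and limma voom were run on the recovered reads as alternatives; for all genes in KO_PBS against WT_PBS DESeq2 called 1451 higher and 1579 lower, edgeR 1424 higher and 1421 lower. Shares and ratios were tested by two-sided exact permutation over libraries, for which 0.1 is the smallest p. The limma script was tested on simulated data.

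Members and gene lists were chosen with earlier results of these data known. The genes named were the members, Gaa, the slow counterparts, of each other muscle list the 4 called in KO_PBS against WT_PBS with the smallest p, and the genes of nearest profile; Smtnl1, Myoz3, Hdac5 and Ube2c were named after their values were seen. A regulator that the rule names is not reported here. Samples were grouped by the labels' genotype and treatment; mouse numbers follow sample order and pair nothing. Depth limits genes near 1 read.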

Additional observations from a re-analysis of the deposited data

How the results depend on the processing

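No paired analysis was possible because the labels give the groups no shared replicate numbers. Of the 30 member fold changes, all kept direction and side of the threshold with a pseudocount of 1 and without the filter, 29 with a pseudocount of 0.1 and with only the 2 groups compared, 28 each with edgeR, limma voom, a filter at 5 and centring on the shared sarcomere genes, 23 with DESeq2 (the other 7 now passed), 22 without scaling factors and 14 with quantile normalization. Members lower in KO_PBS against WT_PBS numbered 6, against 1 without scaling factors, 0 with quantile normalization (0 unadjusted) and 1 to 8 with 1 library left out. With DESeq2 4 members rose in KO_secGAA against KO_PBS and 1 fell in KO_secGAA against WT_PBS, where limma called 0 in each. Quantile normalization gives each rank 1 value in every library, and Myh4 ranked first in all but WT_PBS 2. In both comparisons with WT_PBS the sign of Myh4 was therefore fixed above 0 in advance. The method turned KO_PBS against WT_PBS for Myh4 (0.11), Tnnt3 (0.21), Tnni2 (0.070) and Mylpf (0.11). It put Myh4 at 0 in KO_secGAA against KO_PBS and turned Tnnc2 (-0.13) and Mylpf (-0.026) there, and it turned KO_secGAA against WT_PBS for Myh4 (0.11), Myh1 (0.12), Tnnt3 (0.25), Tnni2 (0.16) and Mylpf (0.082). Without scaling factors Myh1 (0.155), Tnnt3 (0.034) and Tnni2 (0.037) turned in KO_secGAA against WT_PBS; the cause was not tested. With 1 library left out, Myh1 ran from -0.093 to 0.62 in KO_PBS against WT_PBS and from -0.39 to 0.32 in KO_secGAA against WT_PBS. Myh2 ran from -0.17 to 1.26 in KO_PBS against WT_PBS, from -0.46 to 0.20 in KO_secGAA against KO_PBS and from -0.27 to 1.15 in KO_secGAA against WT_PBS. Without mitochondrial genes the members' share of reads differed by 1.89 points between KO_secGAA and KO_PBS, against 1.497 with them, by -0.87 between KO_secGAA and WT_PBS (-0.42 with them) and by -2.76 between KO_PBS and WT_PBS (-1.92 with them). Ratios were recomputed without each library after the data were seen.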
